A study of Mus musculus with 2 samples.

Results

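The TRIM genes encode a family of ubiquitin ligases and related proteins built on a tripartite motif, a RING finger, B-box zinc fingers and a coiled coil, followed in most members by a further domain that recognises the target. The members described here are all genes named Trim with a number that RefSeq lists as protein-coding on GRCm38 (chromosomes 1 to 19 and X). There are 68 of them among 21627 protein-coding genes. Binding of IRF4, an interferon regulatory factor that controls B-cell and plasma-cell genes, was measured in the murine B-lymphoma line CH12.LX by chromatin immunoprecipitation and sequencing in 2 biological replicates that form 1 group. The labels give no treatment and no genetic change, and both replicates are from this line, which came from a female of strain B10.H-2aH-4bp/Wts. No control sample was analysed here. A summit, the base of highest signal in a peak, was taken from the optimal list of 44058 peaks on mm10, which the depositors selected with the irreproducible discovery rate from both replicates. It was assigned to every member whose start lay within 10 kb.

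Many TRIM proteins act in innate immunity. TRIM25 adds ubiquitin to the viral RNA sensor RIG-I, TRIM21 is a cytosolic antibody receptor, and relatives of human TRIM5 block retroviruses. Several of these genes are induced by interferon through the tandem repeat of GAAA that IRF proteins bind, while other members shape chromatin, the cytoskeleton or muscle. IRF4 recognises the same GAAA core, usually beside a partner such as PU.1 or BATF.

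Optimal summits lay within 10 kb of the start in 40 of the 68 TRIM genes, or 58.8%, against 50.3% of the 20920 protein-coding genes with a known strand. A summit within 1 kb was found at 25 members, or 36.8%, against 31.9% of all genes. The distance from the background differed between lists. Among the peaks above the median rank of the optimal list, 29 members (42.6%) had a summit within 10 kb, against 31.6% of genes. Within 1 kb 14 members (20.6%) had one of these peaks, and the share of all genes was not computed. In the separate list on mm9, with gene starts from GENCODE, 53.7% of 67 members had a summit within 10 kb, against 33.4% of 22350 genes. Within 1 kb the shares were 34.3% and 17.4%. The mm9 genes are another set than the 20920 above, so the gaps are not directly comparable between builds. The 40 members shared 72 distinct summits, of which 7 were within reach of 2 members and 33 lay within 1 kb of a start. The nearest gene start belonged to a member for 66 of the 72. The median signal of the strongest peak per gene, in deposited units with no stated scale, was 54.0 over the 40 members and 49.2 over all genes with a summit. A signal of 100 or more was reached at 7 of the 40 (17.5%), against 15.3% of all genes with a summit.

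The members were placed in 8 lists by structure and, for the antiviral genes, by function, and the lists are described without a test. They were chosen with earlier results of these data known. The antiviral list does not hold every member with such a role, since Trim65, described below, is outside it. The shares that follow depend on which genes were placed in it. Of the 16 antiviral genes, 12 had a summit within 10 kb and 10 within 1 kb, or 62.5%, against 28.8% of the 52 other TRIM genes and the 31.9% of all genes given above. The median strongest signal was 67.3 over the 12, against 50.9 over the 28 other members with a summit. The list with a MATH, ARF, filamin or transmembrane end had a like share within 1 kb, 3 of 5 genes, with a median of 30.6. The lists are small, and 10 of the 16 antiviral genes are neighbours in 1 cluster on chromosome 7. Outside that cluster 5 of the 6 antiviral genes, Trim14, Trim21, Trim25, Trim26 and Trim56, had a summit within 1 kb, and Trim38 had none within 10 kb.

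**Figure D1:**
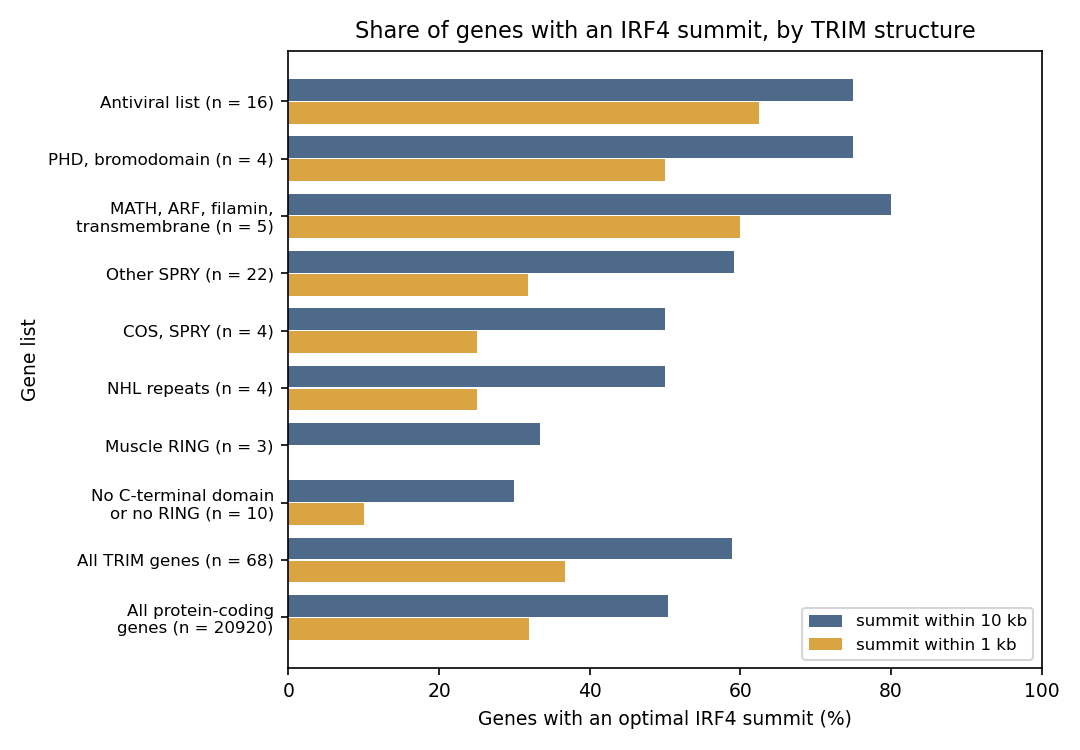
Percent of genes (horizontal axis) with an optimal IRF4 summit within 10 kb or 1 kb of the start, for each TRIM list, all 68 TRIM genes and all 20920 protein-coding genes with a known strand. The antiviral list has 62.5% within 1 kb, against 31.9% of all genes. In the list labelled as having no C-terminal domain or no RING, 1 of the 10 genes has a summit within 1 kb and 3 have a summit within 10 kb.

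Trim25 had the strongest peak of the family. Its summit lay 22 bp upstream of the start (chr11:88999304-88999459, mm10, at the promoter of the gene), with a signal of 223.0 in the optimal list, 97.7 in replicate 1 and 129.6 in replicate 2. It ranked 990 of the 44058 peaks, within the highest 2.25%. It was the sole optimal summit within 10 kb of Trim25.

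Trim56, whose product promotes signalling from viral RNA and DNA, had 3 summits. The strongest lay 426 bp downstream of the start, within the gene (chr5:137116021-137116115, mm10), with a signal of 174.1, and 66.8 and 106.4 in replicates 1 and 2. The others lay 245 bp upstream (signal 53.8) and 4981 bp upstream (77.1).

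Among the other antiviral genes, Trim21, Trim34a, Trim26 and Trim14 each had the strongest summit close to the start. At Trim21 it lay 51 bp downstream (chr7:102565262-102565601, mm10) with a signal of 81.2, and 40.4 and 42.9 in replicates 1 and 2. At Trim34a, a mouse relative of human TRIM34, it lay 44 bp downstream (chr7:104244323-104244662) with 74.5, and 24.8 and 46.7 in the replicates. At Trim26, in the MHC region of chromosome 17, it lay just upstream (chr17:36836803-36837142) with 69.2, and 36.0 and 32.5 in the replicates. Trim26 was one of the few members with the higher value in replicate 1. At Trim14, an adaptor for the mitochondrial signalling protein MAVS, it lay 49 bp downstream (chr4:46535932-46536271) with 63.4, and 26.1 and 37.7 in the replicates.

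The other antiviral members with a summit all belong to the chromosome 7 cluster. Trim12a and Trim12c, relatives of human TRIM5, had signals of 65.5 (700 bp downstream) and 50.5 (24 bp upstream). The Trim12a peak had 18.95 in replicate 1 and 46.4 in replicate 2. The Trim12c peak had 20.4 and 29.2, and it also lay 5264 bp downstream of the Trim30b start, where it is the sole summit within 10 kb. Trim30c had a summit 3812 bp upstream with a signal of 85.2, and 33.7 and 51.4 in replicates 1 and 2. Trim30d had one 99 bp upstream with 32.9, matched in replicate 1 (9.86) and without a replicate 2 summit within 100 bp. Within 1 kb of the Trim30d start the best replicate 2 summit had 22.3. Trim30a, whose product restrains NF-kB signalling in mice, had one 204 bp upstream with 26.1. It was matched in replicate 2 (16.8) and had no replicate 1 summit within 100 bp. A weak summit lay 429 bp upstream of Trim30a with 7.22, matched in replicate 1 (11.2). A second RefSeq start of Trim30a, inside the gene, had a stronger summit 16 bp upstream of it, with 60.2, and 19.97 and 38.5 in the replicates.

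**Figure D2:**
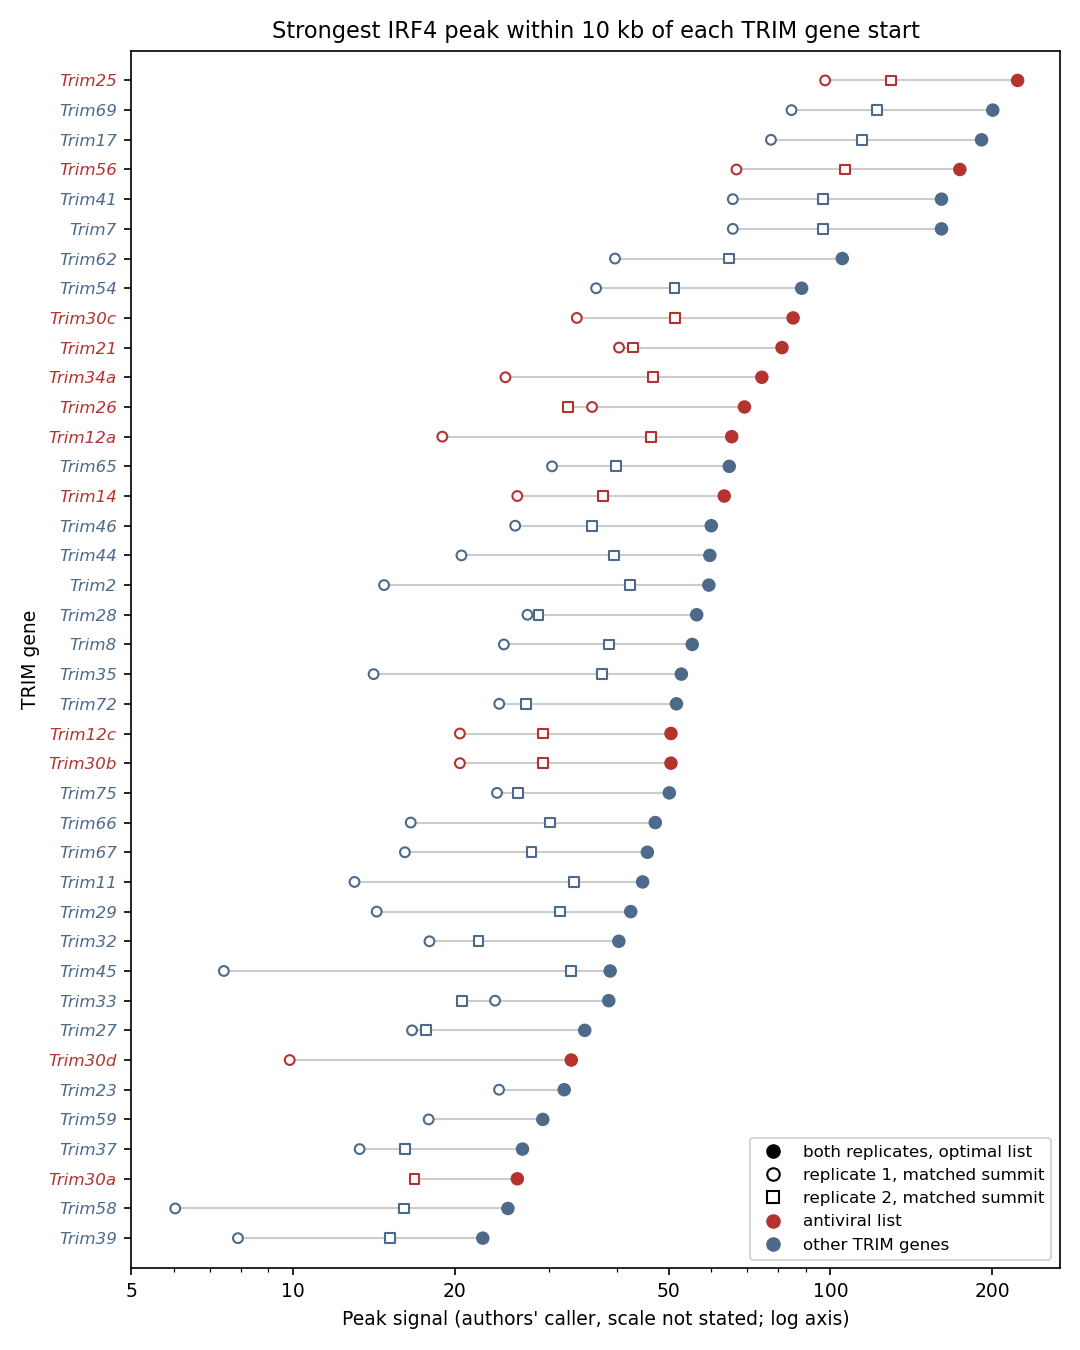
Signal of the strongest optimal peak within 10 kb for the 40 TRIM genes with a summit (horizontal log axis, authors' units, 1 gene per row), with the signal of the matched summit in replicate 1 (open circles) and replicate 2 (open squares); red marks the antiviral list. Trim25 leads with 223.0, and Trim39 is lowest with 22.5.

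IRF elements in the promoters were read from sequence alone. Promoter windows from 250 bases before to 50 after each start, from RefSeq on GRCm38.p6, were given for 53 of the 68 members. They were searched on both strands for 4 elements. The tandem IRF core is GAAA, any 2 bases and GAAA, and the ETS-IRF core is GGAA, any 2 bases and GAAA. The AP-1-IRF elements are GAAA directly before TGANTCA, and TTTC, any 4 bases and TGANTCA. Tandem and ETS-IRF matches can overlap, and a gene counted once over all its windows. Of the 53 members 14 held at least 1 of these elements, or 26.4%, against 6.9% of the 17273 genes with a window. Without the chromosome 7 cluster 7 of 43 members held one (16.3%). With 1 window per gene the counts were 12 of 53, against 6.06% of all genes. Of the 15 antiviral members with a window 10 held one (66.7%), against 4 of the 38 other TRIM genes (10.5%). Of these 10, 7 lie in the chromosome 7 cluster, and outside it 3 of 5 antiviral genes held one, Trim21, Trim25 and Trim26. The tandem core was in 8 of the 15 antiviral promoters, against 3.98% of all genes, and the ETS-IRF core in 5, against 3.02%. Neither AP-1-IRF element was found in a member's window.

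**Figure D3:**
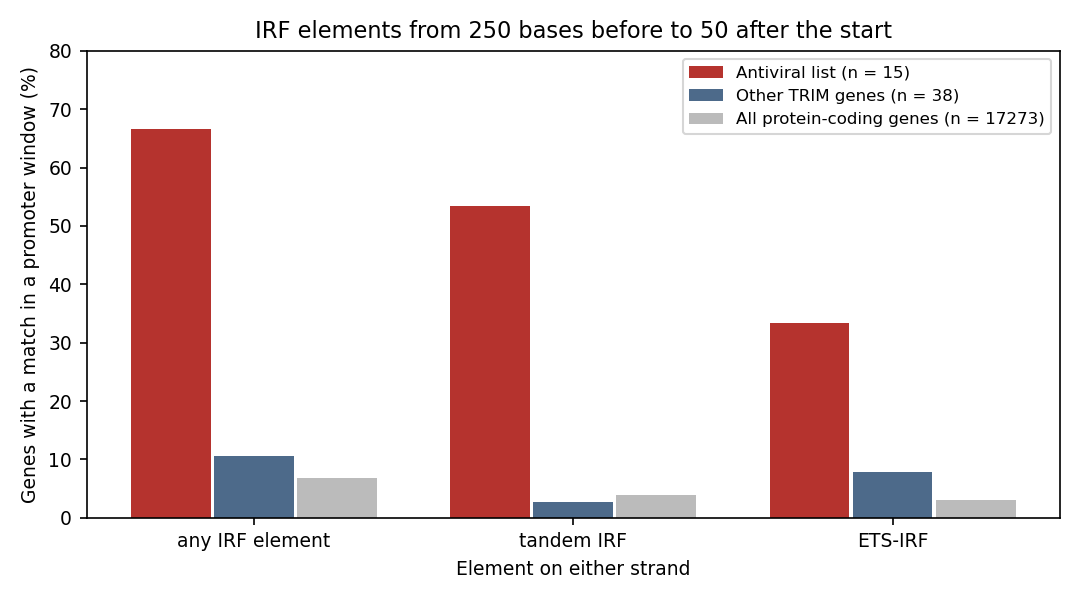
Percent of genes (vertical axis) with an IRF element in a RefSeq promoter window, for the 15 antiviral TRIM genes, the 38 other TRIM genes and all 17273 genes with a window. Any element is present in 66.7% of the antiviral genes, against 10.5% of the other TRIM genes and 6.9% of all genes.

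Most of the antiviral promoter elements are shown, because 6 of these genes have one within 50 bp of an optimal summit and because several are copies of each other. The Trim5, Trim12a, Trim30d and outer Trim30a elements lay farther from a summit, and the 2 of Trim34b, over 10 kb from one, are not printed. Each line gives 30 bases of RefSeq promoter sequence (GRCm38.p6) on the gene strand, 5′ to 3′, and capitals mark the searched elements. TTTC reads as GAAA on the other strand.
Trim25 (chr11:88999389-88999418, + strand): tcctgttcagTTTCGATTCCttcctcgctg
Trim21 (chr7:102565450-102565479, - strand): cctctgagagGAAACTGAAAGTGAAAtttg
Trim26 (chr17:36836976-36837005, + strand): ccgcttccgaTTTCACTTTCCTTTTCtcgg
Trim34a (chr7:104244457-104244486, + strand): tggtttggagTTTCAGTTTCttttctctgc
Trim12a (chr7:104315466-104315495, - strand): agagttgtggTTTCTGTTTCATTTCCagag
Trim12c (chr7:104353359-104353388, - strand): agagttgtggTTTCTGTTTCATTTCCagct
Trim5 (chr7:104288136-104288165, - strand): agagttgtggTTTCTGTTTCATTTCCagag
Trim30a (chr7:104465210-104465239, - strand): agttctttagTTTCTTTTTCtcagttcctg
Trim30a, inner start (chr7:104446104-104446133, - strand): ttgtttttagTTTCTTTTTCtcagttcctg
Trim30d (chr7:104507871-104507900, - strand): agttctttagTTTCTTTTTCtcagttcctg

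The centre of the Trim25 element, an ETS-IRF core across the start, lay 23 bp from the summit with the signal of 223.0. Trim21 and Trim26 each carry 2 overlapping tandem cores, whose nearer centres lay 27 bp and 19 bp from their summits. The Trim34a core lay 20 bp from its summit, the nearer Trim12c core 9 bp, and the core at the inner Trim30a start 23 bp. These 6 were the members with an element within 50 bp of an optimal summit, of 14 with an element. The Trim12a cores lay 616 and 622 bp from its summit, the outer Trim30a core 173 bp and the Trim30d core 67 bp. Of the 9 antiviral genes with both a window and a summit within 1 kb, 8 held an element, Trim56 being the exception. Over all genes an element was in 6.79% of promoters with a summit within 1 kb and in 6.94% of those without. Among TRIM genes the shares were 45.0% (9 of 20) and 15.2% (5 of 33).

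Not every antiviral gene with an element had a summit. Trim5 carries the same 30 bases as Trim12a, where the summit lay 616 and 622 bp from the cores. The optimal summit nearest to the Trim5 start lay 11919 bp away. In the relaxed list of both replicates pooled, which ranks 300000 peaks, the best summit within 1 kb of Trim5 had a signal of 12.3 and ranked 105839. Trim34b holds 2 ETS-IRF cores in its RefSeq window, and its nearest optimal summit lay 14613 bp away. This holds for the RefSeq start only. On mm9 a summit lay 66 bp upstream of the annotated Trim34b start, with a tandem core within 50 bp. Trim6, with no element, had its nearest summit 12597 bp downstream, and Trim38 had its nearest 15195 bp upstream. Outside the antiviral list, Trim44, Trim2, Trim15 and Trim40 held an element in a window. In these 4 the element lay 260 bp or more from any optimal summit.

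The chromosome 7 cluster runs from Trim6 to Trim30d and holds 10 members, 7 of them with a summit within 10 kb, against 43.2% of all genes on chromosome 7. The sequence around the summits of some of these genes is nearly the same, as at Trim30a and Trim30d, and at Trim34a and Trim34b. How reads that match several copies were placed is not stated, so values at these are uncertain. The deposited mm9 list, derived from mm9 alignments of replicates 1 and 2 with no control named among its inputs, differed at these genes. Within 15 kb of the cluster it held 12 summits, and the optimal list held 11. Its strongest, with a signal of 281.7 (chr7:111445297-111445565, mm9), lay 3318 bp upstream of the mm9 start of Trim34b, and another of 215.2 (chr7:111389450-111389683) lay 3414 bp upstream of Trim34a. Windows of 100 bases either side of these summits aligned over 186 columns with 97.8% identity. The optimal list had no summit at that distance from Trim34a, and none of the 12 mm9 signals can be set against an mm10 signal directly, since the scales differ between the lists. The mm9 summits at Trim34a and Trim34b, 2 bp downstream and 66 bp upstream of the starts, had signals of 238.3 and 101.5 and windows 89.1% identical over 174 columns. Those at Trim30a and Trim30d were 96.5% identical over their full length. The mm9 annotation placed Trim34b 81.4 kb from the Trim6 start, and RefSeq placed it 110.7 kb away on GRCm38, so the gene models differ as well. A summit of 32.6 in the optimal list lay 81.4 kb from the Trim6 start, the distance of the mm9 Trim34b start, and it is the one 11919 bp from Trim5. A summit of 85.8 in the optimal list, between Trim30b and Trim30c, was within 10 kb of no outermost member start in RefSeq. On mm9 a summit at the same distance from Trim6 lay 14 bp from a start annotated as Trim30b.

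**Figure D4:**
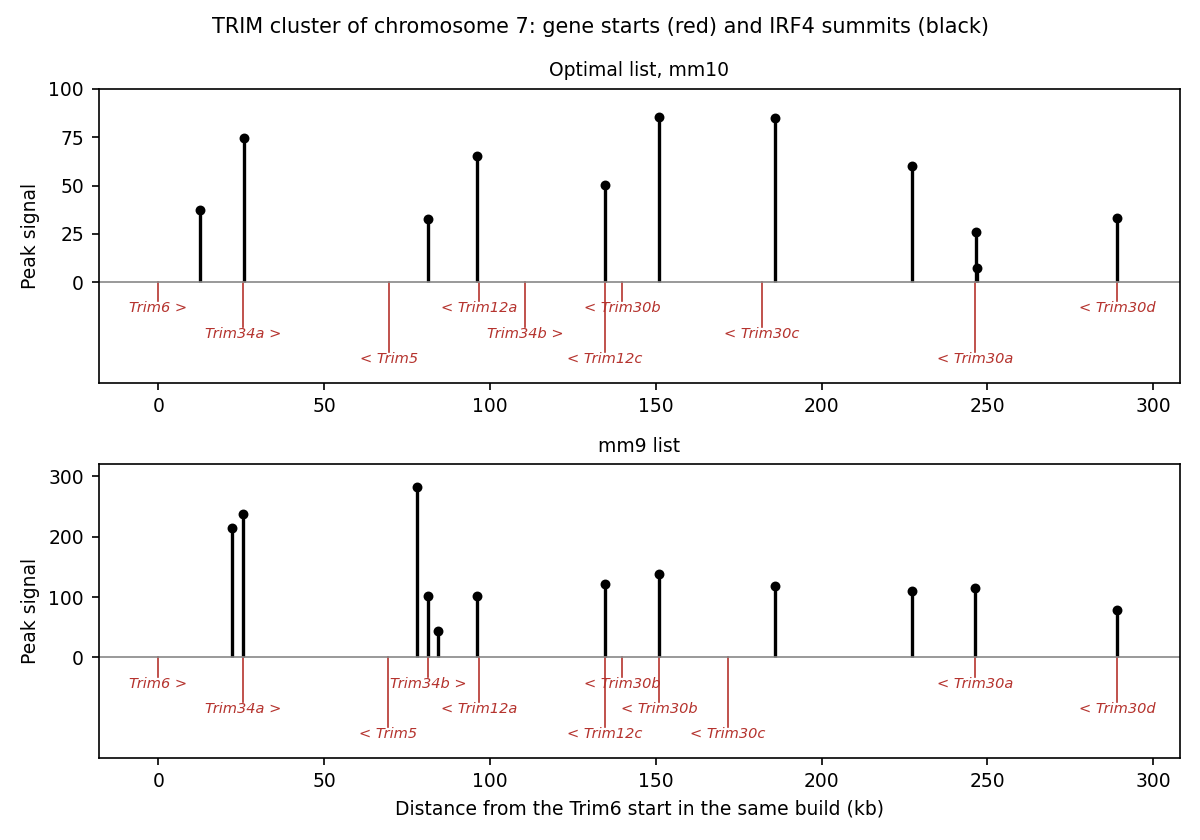
Gene starts (red, arrowheads show the direction of the gene) and IRF4 summits (black, height is the signal) in the TRIM cluster of chromosome 7, against the distance in kb from the Trim6 start, in the optimal mm10 list (top) and the mm9 list (bottom, other signal scale). The mm9 list has summits of 215.2 and 281.7 upstream of Trim34a and Trim34b that have no counterpart at those distances in the optimal list.

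Among the other members with a SPRY domain, which binds targets, 13 of 22 had a summit within 10 kb (59.1%, against 50.3% of all genes). Within 1 kb 7 had one, or 31.8%, close to the 31.9% of all genes. Trim69, whose human counterpart is induced by interferon, was second in the family. Its strongest summit lay 955 bp downstream of the outermost start and 107 bp downstream of another RefSeq start (chr2:122161608-122161746, mm10), with a signal of 200.5, and 84.6 and 121.9 in replicates 1 and 2. It had 5 summits within 10 kb, and the peak also lies inside the overlapping gene Patl2.

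Trim17 came next, with 191.1, and 77.5 and 114.4 in the replicates. This summit lay 4627 bp downstream, within Trim17 (chr11:58959221-58959321), and closer to the start of the histone gene H3f4, 2413 bp away. Trim41 and Trim7 are neighbours and shared a summit of 160.9, 2355 bp upstream of Trim41 and 5584 bp upstream of Trim7 (chr11:48820490-48820615), with 65.8 and 96.9 in the replicates. Trim7 also had a summit 47 bp upstream of an inner RefSeq start, with 52.8. Trim62 had a summit of 105.2 located 6453 bp upstream (chr4:128877422-128877761), with 39.7 and 64.7 in the replicates.

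These strong summits lay mostly away from starts, unlike that of Trim25. Trim65, whose product acts on the RNA sensor MDA5, had 64.8 located 798 bp downstream. The other members of the list with a summit had signals from 22.5 at Trim39 to 52.8 at Trim35. The Trim72 peak, with 51.7, lay 9669 bp upstream of Trim72 and 74 bp from the start of Pycard, the gene of the inflammasome adaptor ASC. The 9 members of the list with no summit were Trim10, Trim15, Trim43a, Trim43b, Trim43c, Trim47, Trim50, Trim60 and Trim68.

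**Figure D5:**
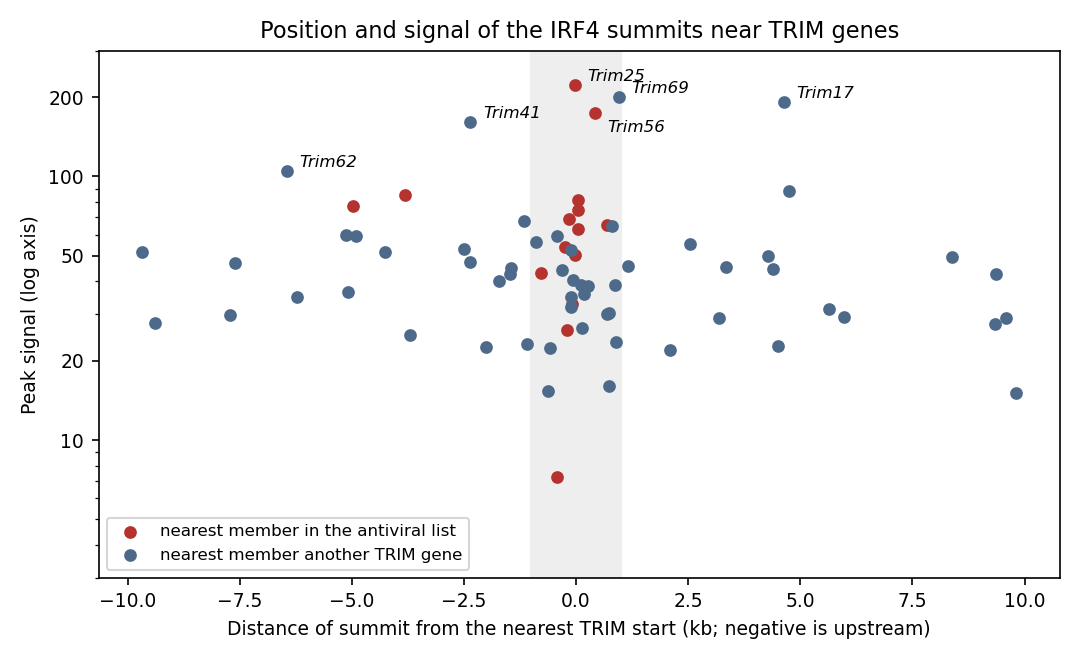
Signal of the 72 optimal summits near TRIM genes (vertical log axis, authors' units) against distance in kb from the nearest TRIM start, with upstream negative; the grey band marks 1 kb either side, and red marks summits whose nearest member is in the antiviral list. Trim25 and Trim56 are high at the start, and Trim17, Trim41 and Trim62 are high away from it.

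Chromatin-linked members with a PHD finger and bromodomain had summits of moderate signal. Trim28, the gene of the KAP1 corepressor that silences retroelements, had one 901 bp upstream with 56.4, and 27.3 and 28.6 in replicates 1 and 2. Trim33, a regulator of SMAD signalling and blood formation, had one 114 bp downstream with 38.7, and 23.8 and 20.6 in the replicates. The Trim66 peak, with 47.2, lay 2371 bp upstream and 65 bp from the start of the ribosomal protein gene Rpl27a. Trim24 had none within 10 kb of its outermost start, and a summit of 32.1 lay 4313 bp upstream of its second start.

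Of the 11 members in the COS box, muscle RING finger and NHL lists, 2 had a summit within 1 kb of the outermost start. Counting any RefSeq start, 4 had one, against 35% of all genes. Trim46, which organises microtubules at the start of the axon, had 3 summits, the strongest 5136 bp upstream with 60.0, and 25.9 and 35.9 in replicates 1 and 2, and one 118 bp upstream with 34.8. Trim67 had one 1157 bp downstream of the outermost start and 545 bp upstream of another, with 45.6, and Trim9 and Trim36 had none. Of the muscle RING finger genes, Trim54 had a summit 4743 bp downstream with 88.4, and 36.6 and 51.3 in the replicates, while Trim55 and Trim63 had none. Of the NHL genes, Trim2, which acts on neurofilament, had 59.4 located 4911 bp upstream, with 14.8 and 42.4 in the replicates, and 28.4 located 469 bp downstream of another start. Trim32 had 40.4 located 70 bp upstream, and Trim3 and Trim71 had none.

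Members with a MATH, ARF, filamin or transmembrane end had weak peaks. Their strongest signals ran from 26.7 at Trim37 to 38.9 at Trim45, with 32.0 at Trim23 and 29.2 at Trim59, and Trim13 had none. The Trim59 peak lay 3191 bp downstream, the others within 1 kb. The remaining list holds 10 members, most of them without a RING or a known C-terminal domain. Of these 10, 3 had a summit within 10 kb (30%, against 50.3% of all genes). These were Trim44 with 59.6, and 20.6 and 39.6 in replicates 1 and 2, Trim8, which acts on the cytokine signalling inhibitor SOCS1, with 55.3 and 6 summits, and Trim29 with 42.5. Trim16, Trim31, Trim40, Trim42, Trim52, Trim61 and Trim80 had none.

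Sequence under the distal summits could be read on the mm9 list, since the genome in use was mm9. On mm9, 36 of the 67 annotated members had a summit within 10 kb and 23 within 1 kb. In both lists 30 members had one within 10 kb, while Trim5, Trim31, Trim34b, Trim40, Trim47 and Trim63 had one on mm9 only and 10 members on mm10 only. The mm9 list held 51 summits within 10 kb of a member start, and 11 of them (21.6%) had an IRF element within 50 bp, against 16% of all 27671 mm9 summits. Within 25 bp the count was 7, against 10.3% of all, and within 100 bp it was 15, against 19.7%. By the nearest member, 7 of 19 antiviral summits and 4 of 32 others had one. The distal stretches below, 1 inside Trim17, 1 upstream of Trim56 and 1 inside Trim69, and the Trim75 site show the forms found, written on the gene strand with elements in capitals.
Trim17 (chr11:58772773-58772832, mm9, + strand): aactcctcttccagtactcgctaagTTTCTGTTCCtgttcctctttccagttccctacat
Trim56 (chr5:137597273-137597332, mm9, - strand): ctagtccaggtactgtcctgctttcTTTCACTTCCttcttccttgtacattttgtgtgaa
Trim69 (chr2:121990160-121990219, mm9, + strand): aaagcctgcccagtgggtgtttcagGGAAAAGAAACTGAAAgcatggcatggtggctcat
Trim75 (chr8:67507224-67507253, mm9, - strand): tcctgaagtgGGAAGTGAAAgagattcaag

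The Trim17 element was centred 2 bp from a summit of 282.5, and the Trim56 element 14 bp from one of 82.3. The Trim69 stretch lies near a weak summit of 50.5, whereas the strongest mm9 summit of the family, 352.0 at Trim69, had no searched element within 50 bp. The summit of 344.1 shared by Trim41 and Trim7 had none within 50 bp either.

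The members with the strongest peaks were often on chromosome 11, where 70.8% of all genes had a summit within 10 kb. Of the 11 TRIM genes there 8 had one, and these include Trim25, Trim17, Trim41 and Trim7. On chromosome 9 a summit was found at 1 of 6 members, against 51.9% of the genes there. The 5 without are the Trim43 genes, known from the early embryo, Trim42 and Trim71. The part of chromosome in the family's values was not tested, and without chromosomes 11 and 16 a summit was found at 32 of 57 members (56.1%), against 48.3% of all genes off those chromosomes.

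Replicate 2 had the higher signal at most sites. Of the 72 summits 57 had a summit of each replicate within 100 bp (79.2%, against 85.4% of optimal peaks), 8 had one of replicate 1 only and 7 of replicate 2 only. Replicate 2 was higher at 50 of the 57, and the median log2 ratio of replicate 2 to replicate 1 was 0.56, against 0.53 over all matched optimal peaks. By the nearest summits, Trim45 stood farthest towards replicate 2, with 7.43 in replicate 1 and 32.9 in replicate 2. The best replicate 1 summit within 1 kb of the Trim45 start had 17.1. Trim33 stood farthest towards replicate 1 among strongest peaks matched in both. Of the 72, 56 had a conservative summit within 100 bp (77.8%, against 72.3% of optimal peaks), and so had the strongest peak of 35 of the 40 members. The exceptions were Trim30d, Trim39, Trim45, Trim58 and Trim59. In the conservative list itself 39 members had a summit within 10 kb, against 44.6% of genes. Counting from any RefSeq start, 41 had one within 10 kb, against 51.6%, and 28 within 1 kb, against 35%. No read numbers were at hand, so depth is unknown, and with 1 group and no expression data no effect of binding on the genes can be read.

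Of the members inside the limit of 10 kb, the nearest summit lay farthest away at Trim72 (9669 bp) and Trim62 (6453 bp). Of those outside the limit, it lay closest at Trim31 (11899 bp) and Trim5 (11919 bp).

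A list of 17 genes of the RIG-I and ISG15 pathways, in which TRIM25 acts, also holds general interferon-induced genes such as Ifit1, Oasl1 and Irf7. Like the TRIM lists, it was chosen with earlier results of these data known, and no test was made. All 17 had a summit within 10 kb, against 50.3% of all genes, and 16 within 1 kb, against 31.9%. Their median strongest signal was 60.6, against 49.2 over all genes with a summit. Examples above that median are Ifit1, an interferon-induced RNA-binding effector (197.2, 107 bp upstream), and Dhx58, the gene of the sensor LGP2 (108.3, 23 bp downstream). Others are Uba7, the ISG15-activating enzyme (98.3, 34 bp upstream), and Isg15 (69.2, 92 bp upstream). Below it lay the strongest peaks of Ddx58 (55.6, 2796 bp downstream), Irf3 (28.8, 275 bp downstream) and Rnf135 (19.4, 5 bp upstream). The exception within 1 kb was Zc3hav1, with 114.9 located 1055 bp downstream. Of 9 TRIM family genes with other symbols, 5 had a summit within 10 kb and 2 within 1 kb. Mefv, the gene of pyrin, had 180.7 located 5281 bp upstream, and Pml, the gene of the nuclear body protein, had 6 summits with 75.1 at most, while Mid1, Triml1, Triml2 and Cmya5 had none.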

How the data were processed

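The 6 deposited lists of peaks in narrowPeak format were read, each with the deposited signal per peak, on a scale that no header explains. Neither aligner nor caller is given in the sources used here, and depth is unknown. Per the deposited file descriptions, the relaxed lists on mm10 were made for each replicate and for both pooled, the optimal and conservative lists were thresholded from them, and the mm9 list came from the mm9 alignments. The offset in the deposited lists was added to the peak start to give the summit.

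Gene starts were the outermost RefSeq GRCm38 gene ends. The strand came from the RefSeq promoter table for 17273 genes and from GENCODE (mm9) by name for 3647; 14691 of the 14730 genes in both had the same strand, and 707 genes without a strand were left out. Coordinates were not converted between builds. Starts for the mm9 shares were those of GENCODE protein-coding genes on mm9, with members counted by symbol and all genes by entry. Replicate signals are those of the nearest summit within 100 bp. No test was made, since there is 1 group and the members and lists were chosen with earlier results of these data known; shares stand beside those of all genes. Values are given in full for the 12 strongest members, the strongest of each list, all antiviral members with a summit, 2 members either side of the window limit and the members whose replicates stand farthest apart; the values of other members, of inner starts, of the mm9 cluster and of the partner genes were chosen after they were seen. Python 3.11.15, numpy 2.4.6, pandas 2.3.3, matplotlib 3.10.9, pysam 0.24.0 and samtools 1.23.1 were used, and the assignment, matching and motif steps were tested on simulated data. Alternatives covered the list, the replicate, the window, the build and the motif.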

Additional observations from a re-analysis of the deposited data

How the results depend on the processing

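Of 46 alternatives to 7 results, 34 left a count within 1.5 times its value, or the median signal within the replicate spread of 5.78 (SD of the medians of replicates 1 and 2), and 12 moved it. The number of TRIM genes with a summit within 10 kb ran from 29 to 44 against 40. It was 39 in the conservative list and 36 of 67 in the mm9 list, where 33.4% of the genes annotated on mm9 had one. The peaks above the median rank of the optimal list alone gave 14 genes within 1 kb (25 in the full list), 39 distinct summits (72) and a median of 63.4. A window of 25 kb gave 54 genes with a summit, 161 distinct summits and a median of 60.3. The share of all genes within 25 kb was not computed, so the 54 has no background to stand beside. On the mm9 list the median was 80.8, on its own scale. With 1 replicate left out, the strongest 44058 peaks of the other replicate's relaxed list were used, with no threshold on the irreproducible discovery rate. On these lists, with lower signals, the median was 23.8 to 31.9 and the genes within 10 kb were 43 to 44. Those within 1 kb were 26 to 28, and the distinct summits 86 to 88. The shares of all genes on these lists were not computed, so these counts have no background. Motif windows of 25 bp gave 7 of the 51 mm9 summits with an IRF element (11 at 50 bp, 15 at 100 bp). The tandem core alone was in 9 member promoters and the ETS-IRF core alone in 8, against 14 with any element. Alternatives added after seeing the data were any RefSeq start (41 genes within 10 kb, 28 within 1 kb), 1 window per gene (12 promoters with an element), and the chromosome 7 cluster left out. Without that cluster 7 of 43 promoters held an element, against 14 of 53 with it, and 20 of 58 genes had a summit within 1 kb. No paired analysis was possible because the replicates form 1 group. The depth is unknown.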
